A study of Mus musculus with 4 samples.

Results

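The genes described here encode the proteins of the cytosolic ribosome. They were chosen by name: every protein-coding row of the count table whose symbol is Rpl, Rps or Rplp followed by a number and at most 1 letter, together with Rpsa. This rule took 79 of the 26433 genes in the table, of which 31 encode proteins of the small subunit, 45 encode proteins of the large subunit and 3 encode the stalk (Rplp0, Rplp1 and Rplp2). A few ribosomal genes fall outside this spelling, such as Rps3a1, Fau and Rack1, and they are given separately.

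Bulk RNA sequencing measured E15 telencephalic tissue of mice that carry human SERPINA3 and of WT littermates, with 2 libraries per genotype. The knock-in allele sits in Rosa26 and places 3×flag-tagged human SERPINA3 behind the CAG promoter and a loxP-flanked STOP cassette. In cKI f/+ mice, which are heterozygous for it, Nestin-Cre removes the STOP in neural progenitor cells and their progeny, so cells of other lineages in the tissue are not expected to carry the recombined allele. The labels give the strain of both groups as C57BL/6, and the founders had been bred with B6D2F2 mice. The labels do not say whether WT littermates carry Nestin-Cre, nor how many embryos entered a library. The count columns name the libraries KI2, KI3, WT1 and WT3, and each could be tied to a genotype but not to a single labelled sample, because the labels use other numbers.

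A ribosome is built from a small subunit, which reads the mRNA, and a large subunit, which joins the amino acids, and each protein is needed in about equal number. Mammalian cells keep many of these mRNAs in step at the level of translation: their 5′ ends start with a run of pyrimidines, the 5′TOP motif, through which mTOR signalling controls how well they are translated. In the developing cortex, dividing progenitors are known for high ribosome production. The mammalian genome also holds many processed pseudogenes, which are copies of ribosomal protein mRNAs inserted back into the DNA, and reads from a gene and a near-identical copy are hard to tell apart.

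The libraries held 17423512 to 18119444 counted reads, and edgeR's filter left 15786 genes to test. Genotypes were compared by the quasi-likelihood test of edgeR, and p-values were adjusted over all tested genes (Benjamini-Hochberg, threshold 0.05). Both cKI libraries had many reads on Xist, the RNA that coats the inactive X chromosome (13223 in KI2 and 11882 in KI3), and both WT libraries had 5. The 4 Y-linked marker genes showed the opposite, with 0 or 1 read in each cKI library and at least 214 in each WT library, so genotype and sex cannot be told apart in these samples. All 4 tested meningeal markers of 5 had higher values in both cKI libraries than in both WT libraries, with a summed level of 17.3 to 19.96 CPM (reads scaled to a common library total) in cKI and 6.98 to 9.13 in WT, and the untested one, Lum, had 0 reads in WT1. In edgeR 0 of these 4 were called and all 4 had an unadjusted p under 0.05. The 3 choroid plexus markers summed to 7.16 and 53.9 CPM in cKI and to 0.17 and 1.21 in WT. Most of the cKI sums was Ttr, at 6.54 and 52.8 CPM in cKI and 0 and 0.23 in WT. Folr1 overlapped between the groups (0.51 and 1.10 CPM in cKI, 0.17 and 0.92 in WT). Kl had 2 and 0 reads in cKI and 0 and 1 in WT. The 6 blood markers summed to 366 to 490 CPM in cKI and 491 to 522 in WT, with no single marker at 0. All 6 had log2 fold changes below 0 (median -0.43), with 0 called and 3 at an unadjusted p under 0.05 in edgeR. The 5 microglia markers summed to 22.6 and 25.7 CPM in cKI and to 28.5 and 27.4 in WT. Of these, 3 had log2 fold changes below 0 and 2 above 0, with 0 called and 1 at an unadjusted p under 0.05 in edgeR. The 9 neuronal markers summed to 6742 and 6244 CPM in cKI and to 6860 and 7022 in WT, and all 9 had log2 fold changes below 0 (median -0.13), with 0 called and 0 at an unadjusted p under 0.05 in edgeR. The 7 interneuron markers summed to 245 and 260 CPM in cKI and to 254 and 325 in WT, with 6 of 7 log2 fold changes below 0 and 0 called in edgeR (2 at an unadjusted p under 0.05, Dlx2 and Dlx6os1). The 8 radial glia markers summed to 2224 and 2380 CPM in cKI and to 2224 and 2369 in WT. The part of these differences in tissue in the results that follow was not tested. In bulk tissue, fewer cells of a type and less RNA per cell cannot be told apart.

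Ribosomal protein mRNAs were abundant in every library. Of the 79 genes, 76 had at least 100 reads in each library, and 77 passed the filter and were tested. Only Rpl3l and Rpl39l did not pass: each had 1 read in WT1 and none in the other libraries. Rpl3l is the striated-muscle form of Rpl3, and Rpl39l is a form of Rpl39 known from the testis. A group total of 0 in the cKI libraries leaves room for 3 reads by counting error, so their absence cannot be shown at this depth.

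The 79 genes together took 3.94% and 3.86% of the reads in the cKI libraries KI2 and KI3, and 3.72% and 3.95% in the WT libraries WT1 and WT3. WT1 was the lowest and WT3 the highest, so both cKI libraries lay between the WT libraries. The mean share was 3.90% ± 0.0583 (SD, n = 2) in cKI and 3.84% ± 0.164 (SD, n = 2) in WT, and the difference did not exceed the spread between replicates (2-sided exact permutation test, p = 1, where the smallest p possible with 2 against 2 is 0.33). Without WT1 the log2 ratio of cKI to WT turned from 0.02 to -0.02. The small subunit genes took 1.61% and 1.58% of the reads in cKI and 1.54% and 1.62% in WT. The large subunit genes took 2.05% and 1.99% in cKI and 1.91% and 2.05% in WT. The stalk genes took 0.287% and 0.289% in cKI and 0.265% and 0.287% in WT. In each of the 3 groups WT1 was the lowest library.

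Levels can be compared between genes only per transcript length, and they were computed as reads per kilobase of the shortest complete principal coding transcript, scaled to the library total (RPKM). Among the 77 genes above 1 RPKM, the median over the genes was 613 RPKM, with the middle 50% of genes between 448 and 823. The highest was Rpl41, which encodes a very short basic protein of the large subunit, at 1902 to 2053 RPKM in cKI and 1709 to 1857 in WT. Rplp0, the base of the stalk that recruits translation factors, followed at 1324 to 1326 in cKI and 1247 to 1371 in WT. Rps15 of the small subunit stood at 1275 to 1329 in cKI and 1239 to 1306 in WT, Rplp1 at 1329 to 1372 and 1153 to 1220, and Rps9 at 1182 to 1247 and 1174 to 1271. Rpl41 stood above the other genes in every library, whereas Rplp0, Rps15, Rplp1 and Rps9 overlapped over the 4 libraries and have no firm order.

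Few genes lay far below the others. Rpl24 had 0.587 to 1.88 RPKM, Rpl13a 20.8 to 23.5, Rpl35 41.8 to 47.7 and Rpl23a 75.8 to 83.0, and these genes encode ordinary large subunit proteins. In GENCODE M21, 71.5% of the bases of the Rpl24 transcript used lie in exons of another gene, as do 59.3% for Rpl13a, 68.3% for Rpl35 and 55.4% for Rpl23a. The overlap of Rpl35 is mainly with Wdr38 on the opposite strand, that of Rpl23a with Tlcd1 on the opposite strand, and those of Rpl24 and Rpl13a with Gm28037 and Gm45713 on the same strand. Wdr38 had 0 to 11 reads a library and Tlcd1 52 to 68, and no counts of Gm28037 and Gm45713 were available here. Rps10, with 91.6% of its transcript in exons of other genes, mainly RPS10-NUDT3, had 650 to 712 RPKM. No counts of RPS10-NUDT3 were available here either. Pseudogenes of Rpl23a held 831 to 950 reads a library, more than the 752 to 824 of the gene. Those of Rpl24 held 27 to 39, against 7 to 23 for the gene. For Rpl13a and Rpl35 the pseudogenes held fewer reads than the gene (18 to 43 and 8 to 12). Whether the overlap or these copies set the levels was not tested. Rps27l, a form of Rps27 induced by p53, stood at 105 to 115 RPKM, while Rps27 itself stood at 587 to 638. The length taken matters for Rps20, which had 121 to 129 RPKM on a transcript of 3706 bases while the median of 613 comes from much shorter mRNAs.

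**Figure D1:**
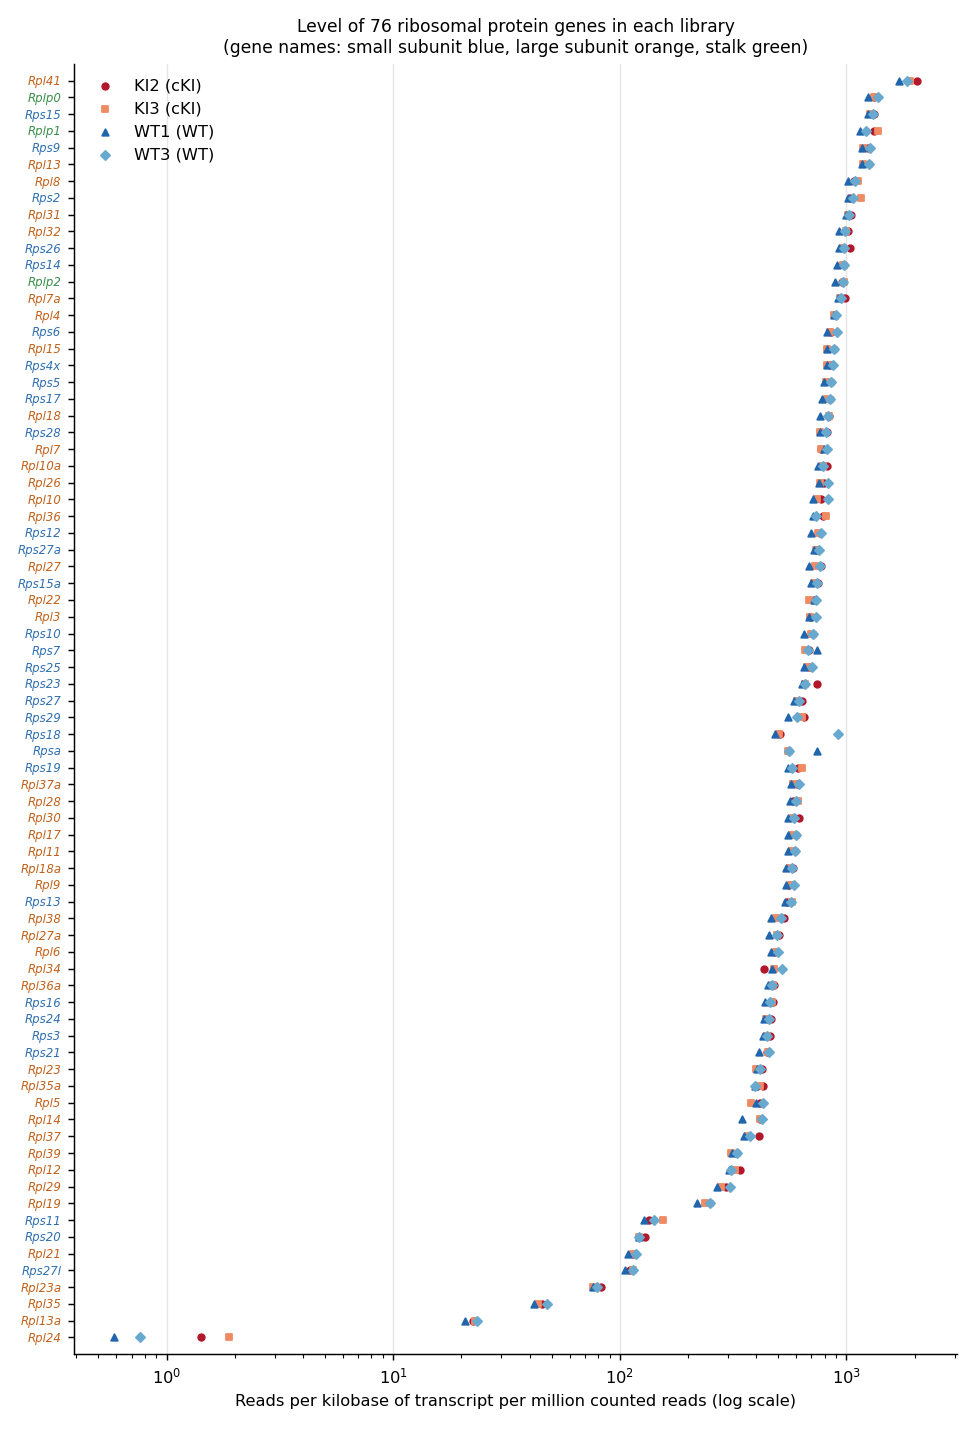
Level of 76 of the 77 ribosomal protein genes above 1 RPKM in the 4 libraries, in RPKM on a log axis; each row is a gene, ordered by its mean, and each point a library. Most genes form a band near the median of 613, Rpl24 lies far below at 0.587 to 1.88, and Rps18 in WT3 and Rpsa in WT1 stand away from the other points of their rows.

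Runs of pyrimidines were more frequent at the annotated starts of these genes than at those of all genes. RefSeq promoter windows (GRCm38.p6) were found for 59 of the 79 genes, with 71 windows in all. In the 40 bases centred on the start, a run of at least 8 pyrimidines (C or T, on the coding strand only) was present in 42.3% of the members' windows and in 16.0% of all 32851 windows. The letters CTTTC were present in 26.8% and 5.49% of the same windows, and the runs and CTTTC overlap by nature. The windows of Rpl7a, Rpl15, Rpl27a, Rpl35a and Rps10 are shown as examples, picked from the windows with CTTTC. Another such window, that of Rpl35, has a longer run (18 bases) than those of Rpl35a and Rps10 (13 each). The examples are shown as 30 bases from 15 before to 15 after the annotated start, 5′ to 3′. The longest run of C and T is in capitals. They are chr2:26910792-26910821 (plus strand), chr14:18270972-18271001 (minus strand), chr7:109519180-109519209 (plus strand), chr16:33056467-33056496 (plus strand) and chr17:27635230-27635259 (minus strand), in this order.
Rpl7a: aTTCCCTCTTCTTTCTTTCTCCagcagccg
Rpl15: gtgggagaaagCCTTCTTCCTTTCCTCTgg
Rpl27a: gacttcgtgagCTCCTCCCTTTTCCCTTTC
Rpl35a: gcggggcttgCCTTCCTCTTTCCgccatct
Rps10: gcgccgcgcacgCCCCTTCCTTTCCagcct
These runs describe the windows only. A window without such letters says nothing of how its gene is translated, since annotated starts can be off by some bases.

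The comparison of cKI with WT asks whether the SERPINA3 knock-in goes with a change in ribosomal protein mRNA. No ribosomal protein gene passed the threshold: 0 of 77 tested genes had an adjusted p under 0.05 in edgeR, where 0.120% of all tested genes did, and DESeq2 and edgeR's likelihood ratio test also called 0. The lowest adjusted p among the members was 0.969 in edgeR. An unadjusted p under 0.05 was reached by 2 of 77 (Rplp1 and Rpl24, both with higher values in cKI), against 4.60% of all tested genes in either direction and 2.26% with higher values in cKI. The median log2 fold change of the 77 genes was 0.04, against 0.004 for all tested genes, and 62 of 77 (80.5%) had a value above 0, against 51.2% of all tested genes. Among the 77 mitochondrial ribosomal protein genes, which are no members, 60 (77.9%) had a value above 0. Of the 77 members, 74 (96.1%) lay within 0.2 of 0 on the log2 scale, against 73.8% of all tested genes. All tested genes are a background that was not matched to the members in number of reads. The median moved with single libraries, to -0.01 without WT1, 0.003 without KI2, 0.06 without KI3 and 0.09 without WT3. Its sign turned only without WT1, which had low values for most of these genes, but it was also small without KI2. The median and the count above 0 thus depend on single libraries.

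The median absolute log2 fold change between the genotypes was 0.05 over the 77 genes. It compares groups of 2 libraries, so it is not a like measure to differences between single libraries, which tend to be larger. The median absolute log2 difference between KI2 and KI3 was 0.06 over the 77 genes, and between WT1 and WT3 it was 0.10. Over all tested genes, which were not matched in number of reads, it was 0.13 and 0.15. In WT1 the median of the 76 genes with at least 100 reads lay 0.07 under the genes' own means on the log2 scale. For 45 of these 76 genes, WT1 was the library farthest from the mean of the others. It was KI2 for 12, KI3 for 7 and WT3 for 12.

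**Figure D2:**
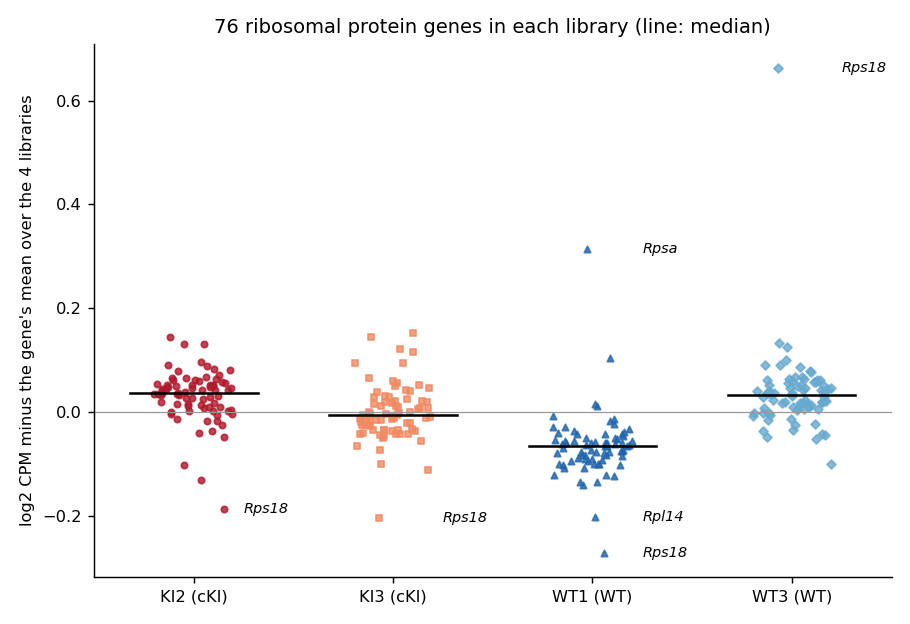
Each point is 1 of 76 ribosomal protein genes in 1 library, as its log2 CPM minus the mean of its 4 libraries, and the black line is the median of the library. Most points of WT1 lie under 0 (median -0.07), while Rps18 in WT3 and Rpsa in WT1 lie far above the others.

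The genotypes did not overlap for 17 of 77 genes, where 33.9% of all tested genes had no overlap. Both cKI libraries were above both WT libraries for 14 (16.0% of all tested genes), and below them for 3 (18.0% of all tested genes). The 14 were Rpl12, Rpl18, Rpl24, Rpl27a, Rpl32, Rpl35a, Rpl36, Rpl36a, Rpl41, Rplp1, Rps3, Rps16, Rps19 and Rps29, and the 3 were Rpl7, Rpl22 and Rpsa. None of these genes passed the adjusted threshold.

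The stalk binds the elongation factors, and its proteins sit on the large subunit as Rplp0 with pairs of Rplp1 and Rplp2. Rplp1 was measured at 663 and 684 CPM in cKI and 575 and 609 CPM in WT, so the groups did not overlap. Its log2 fold change was 0.19 ± 0.07 (SE) with an adjusted p of 0.969 in edgeR. Rplp2 was measured at 403 and 412 CPM in cKI and 376 and 405 CPM in WT, with a log2 fold change of 0.07 ± 0.08. Rplp0 was measured at 1800 and 1799 CPM in cKI and 1694 and 1861 CPM in WT, with a log2 fold change of 0.02 ± 0.07. The 3 stalk genes thus had values above 0, and without WT1 the log2 fold change of Rplp0 was -0.04.

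The other most positive values belonged to Rpl24, Rps29, Rpl41 and Rpl36. Rpl24 had 17 and 23 reads in cKI and 7 and 9 in WT, a log2 fold change of 1.28 ± 0.46, and the value was 0.43 when the reads of its 3 pseudogenes were added. These are few reads for a gene whose protein is part of every large subunit. Rps29, a zinc-binding protein of the small subunit, was measured at 253 and 249 CPM in cKI and 216 and 236 in WT, with a log2 fold change of 0.16 ± 0.08. Rpl41 was measured at 897 and 831 CPM in cKI and 747 and 811 in WT, with a log2 fold change of 0.16 ± 0.08. Rpl36 was measured at 302 and 310 CPM in cKI and 271 and 281 in WT, with a log2 fold change of 0.15 ± 0.07. In Rps29, Rpl41 and Rpl36 alike WT1 was the lowest library, and the adjusted p was 0.969 for each in edgeR.

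**Figure D3:**
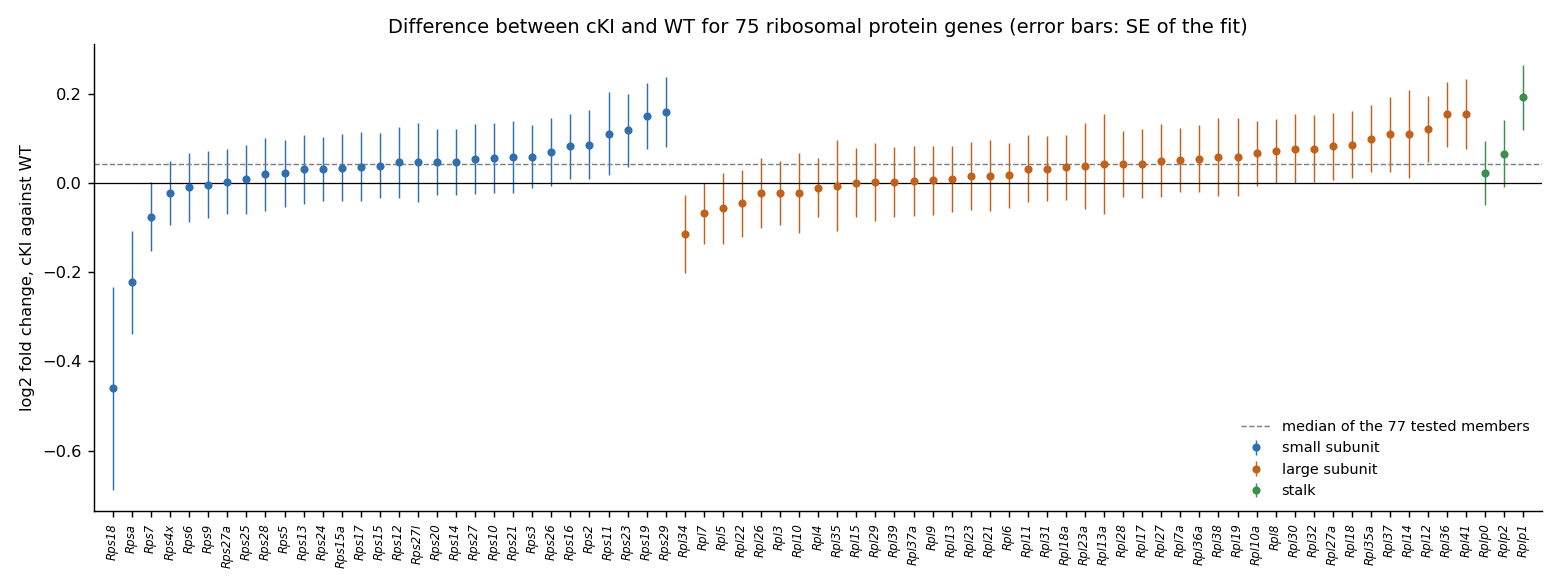
Log2 fold change of cKI against WT with its SE (error bar) for 75 tested ribosomal protein genes, grouped by subunit and ordered by value; Rpl24 (1.28 ± 0.46) is among those not drawn, and the dashed line is the median of all 77. Most genes lie within 0.2 of 0, and the points lowest on the axis, Rps18 and Rpsa, each rest on 1 WT library.

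The most negative values, those of Rps18 and Rpsa, belonged to small subunit genes and each rested on 1 WT library. Rps18, which encodes a protein of the head of the small subunit (chromosome 17, 33951999 to 33956001, minus strand), had 5079 and 5125 reads in cKI, 4757 in WT1 and 8990 in WT3, which is 286, 283, 270 and 516 CPM. The cKI libraries and WT1 were alike, and WT3 was 1.84 times the mean of those libraries. Its log2 fold change was -0.46 ± 0.23 with all libraries and an adjusted p of 0.969 in edgeR. Without WT1, which leaves WT3 to stand for the group and assumes that it varies like the cKI libraries, Rps18 was called (log2 fold change -0.85, adjusted p = 4.9e-06 in edgeR), and without WT3 its value was 0.08. Rpsa, a small subunit protein also known as the laminin receptor (chromosome 9, 120127689 to 120132369, plus strand), had 15808 and 16042 reads in cKI, 20943 in WT1 and 15553 in WT3. This is 891 and 885 CPM in cKI and 1189 and 893 in WT, so WT1 alone was high, and WT3 lay just above the cKI libraries. Its log2 fold change was -0.22 ± 0.12, with an adjusted p of 0.969 in edgeR. Without WT3, which leaves WT1 to stand for the group in the same way, it was called (log2 fold change -0.41, adjusted p = 0.0155 in edgeR), and without WT1 its value was -0.0015.

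Both genes have near-identical copies in the genome, whose counts moved in the same libraries. Rpsa-ps10, a processed pseudogene on chromosome 3 (positions 150072658 to 150073542, minus strand, GRCm38), had 6973 and 7618 reads in cKI, 7305 in WT3 and 429 in WT1. The library that was high for Rpsa was thus the one that was low for the copy. The sum of both was 1284 and 1306 CPM in cKI and 1213 and 1312 CPM in WT. With the reads of all its pseudogenes added, the log2 fold change of Rpsa was 0.04. The coding sequence of Rpsa and the copy differ at 6 of 885 aligned bases (99.3% identity), and 74.4% of the 50-base words of the coding sequence occur unchanged in the copy.

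Rps18 had lower counts on its copies in WT3 as well, but not by as many reads as Rps18 gained. Rps18-ps3 on chromosome 8 had 290 and 314 reads in cKI, 242 in WT1 and 23 in WT3. AL607105.1 on chromosome 13, which the table lists as protein-coding, had 548 and 487 reads in cKI, 423 in WT1 and 99 in WT3. The excess of Rps18 in WT3 over the mean of the other libraries was 236 CPM, and the shortfall of both copies was 36.1 CPM. The sum of Rps18 and both copies in WT3 was therefore still 1.62 times that of the other libraries.

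Windows of 90 coding bases are shown for the members whose reads a copy could hold, because these are the positions by which a read can be assigned. Bases that differ between gene and copy are in capitals. Positions are counted from 1 at the start codon of the member in GENCODE M21: 169 to 258 for Rpsa, 136 to 225 for Rps18 and 40 to 129 for Rps7.
Rpsa: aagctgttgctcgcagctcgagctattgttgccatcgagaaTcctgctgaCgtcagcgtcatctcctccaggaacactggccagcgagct
Rpsa-ps10: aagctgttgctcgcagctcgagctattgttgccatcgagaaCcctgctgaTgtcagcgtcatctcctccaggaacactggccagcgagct
Rps18: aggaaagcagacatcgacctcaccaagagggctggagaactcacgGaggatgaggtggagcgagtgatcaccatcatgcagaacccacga
Rps18-ps3: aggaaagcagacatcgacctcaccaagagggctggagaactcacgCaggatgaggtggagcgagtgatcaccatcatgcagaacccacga
Rps7: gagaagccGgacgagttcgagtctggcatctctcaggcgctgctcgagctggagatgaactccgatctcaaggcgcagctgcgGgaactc
Gm6472: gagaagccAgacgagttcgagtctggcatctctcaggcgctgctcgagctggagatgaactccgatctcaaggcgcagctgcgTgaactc
The window of Rpsa holds 2 of the 6 positions that differ over its coding sequence, that of Rps18 holds 1 of 3 and that of Rps7 holds 2 of 3.

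A similar offset was seen for Rps7, a small subunit protein that also takes part in rRNA processing. Rps7 had 9958 and 9710 reads in cKI and 10680 and 9661 in WT, with a log2 fold change of -0.08 ± 0.08. Its copy Gm6472 on chromosome X had 5459 and 4903 reads in cKI and 4111 and 5433 in WT, so WT1 was highest for Rps7 and lowest for the copy.

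**Figure D4:**
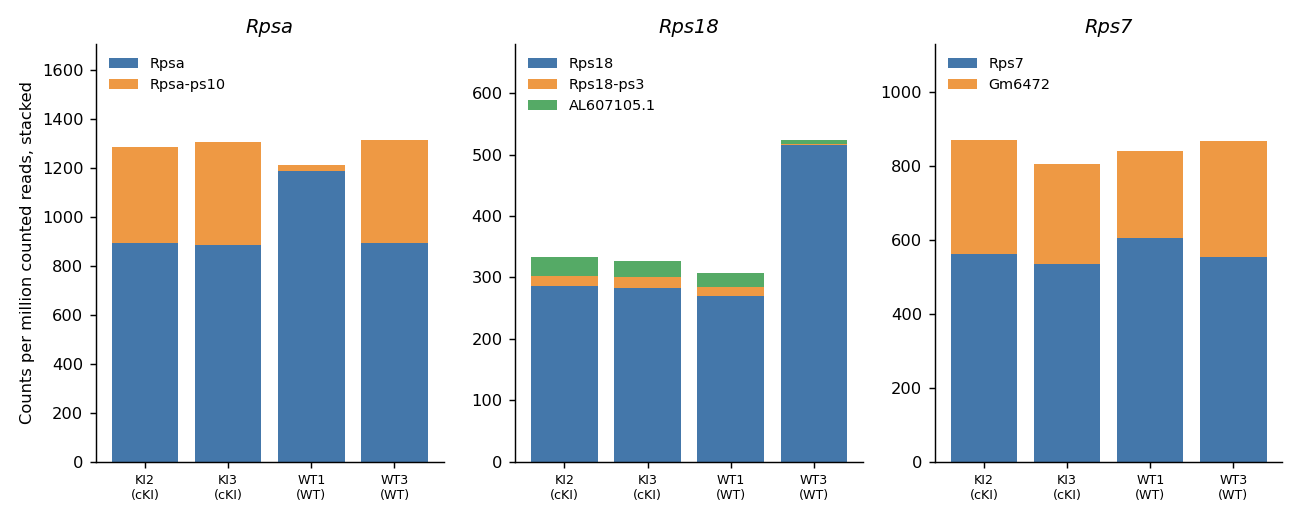
CPM for Rpsa, Rps18 and Rps7 of the small subunit (blue) with the reads of near-identical copies stacked on them (orange and green), in each library; bars start at 0. The stacked height of Rpsa and Rpsa-ps10 stays between 1213 and 1312 CPM while the split between them shifts in WT1, whereas Rps18 in WT3 stays high with its copies included.

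The next most negative values besides Rps7 were those of Rpl34 and Rpl7 of the large subunit. Rpl34 was measured at 207 and 229 CPM in cKI and 225 and 249 CPM in WT, with a log2 fold change of -0.11 ± 0.09. The value was -0.02 with the reads of its pseudogenes added, and it ran from -0.19 to -0.04 with 1 library left out. Rpl7 was measured at 895 and 896 CPM in cKI and 926 and 958 CPM in WT, with a log2 fold change of -0.07 ± 0.07. The groups did not overlap for Rpl7 and overlapped for Rpl34, and both had an adjusted p over 0.96 in edgeR.

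Since the groups differ in sex, the 4 members on the X chromosome are given in full. Rpl10 was measured at 617 and 591 CPM in cKI and 567 and 665 in WT, with a log2 fold change of -0.02 ± 0.09. Rps4x, which escapes X inactivation in humans but not in mice, was measured at 825 and 801 CPM in cKI and 804 and 854 in WT. Its log2 fold change was -0.02 ± 0.07. Rpl36a was measured at 231 and 229 CPM in cKI and 217 and 227 in WT, with a log2 fold change of 0.05 ± 0.07, and Rpl39 at 202 and 190 and at 192 and 201, with 0.003 ± 0.08. The sign of Rpl39 turned under scaling by library size alone (-0.003). None of the X-linked genes came near the threshold (adjusted p of at least 0.993 in edgeR), and their median log2 fold change was -0.01.

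Glo1, which the study examined downstream of SERPINA3, lies on chromosome 17, so the 7 members on that chromosome were also set apart. Besides Rps18, Rpl36 and the untested Rpl3l these are Rps2, Rpl10a, Rps10 and Rps28. Rps2 was measured at 1034 and 1157 CPM in cKI and 1009 and 1063 in WT, with a log2 fold change of 0.09 ± 0.08. Rpl10a, Rps10 and Rps28 had log2 fold changes of 0.07, 0.06 and 0.02, each with an SE of 0.07 to 0.08. The median over the 6 tested members on chromosome 17 was 0.06 and over the 67 tested members on the other autosomes 0.04.

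A copy of Rps2 was called where Rps2 itself was not. Rps2-ps6 on chromosome 14 (positions 76236688 to 76237353, minus strand), listed as protein-coding in the table although its name marks a pseudogene, had 243 and 211 reads in cKI and 89 and 83 in WT. The log2 fold change was 1.37 ± 0.18 (adjusted p = 0.022 in edgeR), and the call was lost with a filter of 1 count over the libraries (adjusted p = 0.0504 in edgeR). The longest transcript of the copy in GENCODE M21 is 99.2% identical to the coding sequence of Rps2 over 855 aligned bases. This is a longer stretch than the positions given above. The copy had far fewer reads than Rps2. Reads of the gene and the copy cannot be told apart with confidence here, so the value of the copy is uncertain. Over all pseudogenes of members, 647 in the table with 168 tested, 0 were called in edgeR. An unadjusted p under 0.05 was reached by 20 of the 168 (11.9%), 19 of them with higher values in cKI (11.3%), against 4.60% of all tested genes in either direction and 2.26% with higher values in cKI. The summed share of these pseudogenes was 0.317% and 0.307% in cKI and 0.250% and 0.304% in WT, with WT1 the lowest library. Rpsa-ps10 is among them, with 24.4 CPM in WT1 and 393, 420 and 419 in KI2, KI3 and WT3. Part of the low share in WT1 is thus this copy.

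Relatives of the members were compared next. Rpl22, a large subunit protein that mice can live without, was measured at 341.1 and 323.2 CPM in cKI and 341.5 and 346.9 in WT. KI2 and WT1 were thus nearly equal for Rpl22. Its relative Rpl22l1 had 357 and 407 reads in cKI and 365 and 382 in WT. The log2 fold change was -0.05 ± 0.07 for Rpl22 and 0.004 ± 0.12 for Rpl22l1. Rpl7l1, a relative of Rpl7 with a role in making the large subunit, had 2280 and 2519 reads in cKI and 2257 and 2168 in WT (log2 fold change 0.09 ± 0.08). Rpl36al had 5 and 9 reads in cKI and 10 and 17 in WT, too few to compare, and Rps4l had 566 and 508 in cKI and 489 and 656 in WT. Rpl3, which reaches close to the peptidyl transferase centre, was measured at 946 and 932 CPM in cKI and 923 and 991 in WT, with a log2 fold change of -0.02 ± 0.07.

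Ribosomal genes that the name rule missed were described in the same way. All 9 such genes were tested, 0 were called and 0 had an unadjusted p under 0.05 in edgeR. Rps3a1 had 13282 and 13192 reads in cKI and 12749 and 13382 in WT, Rack1, the scaffold protein on the small subunit, had 17664 and 17785 and then 16783 and 17362, and Fau, which encodes a ubiquitin-like fusion with a small subunit protein, had 7313 and 6921 and then 6182 and 6847. Relative to the library total, WT1 was the lowest library for each of these 3 genes.

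The genes around the ribosome were tested one by one and grouped into lists. Each list is described by its count and median, and no list as a whole was tested. Of the 77 mitochondrial ribosomal protein genes, which build the separate ribosome of the mitochondrion, 0 were called and 1 had an unadjusted p under 0.05 in edgeR (Mrpl12, log2 fold change 0.22 ± 0.09), and the median log2 fold change was 0.05. Of the 51 ribosome biogenesis genes, which make and process rRNA and assemble the subunits, 0 were called and 0 had an unadjusted p under 0.05 in edgeR, with a median of 0.02. Their values ran from -0.12 for Utp14a, a factor of the small subunit processome, to 0.20 for Rrs1, a factor of large subunit assembly. Of the 20 translation factors and other 5′TOP genes, 0 were called and 0 had an unadjusted p under 0.05 in edgeR, with a median of -0.01. Eef1a1, the elongation factor that brings the tRNA, had 127854 and 125559 reads in cKI and 128306 and 134404 in WT, with a log2 fold change of -0.08 ± 0.06.

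Of the 20 genes of the mTOR pathway, 0 were called and 0 had an unadjusted p under 0.05 in edgeR, with a median of 0.02. Rps6kb1, the kinase that phosphorylates Rps6, had 1023 and 1083 reads in cKI and 1109 and 1177 in WT (log2 fold change -0.15 ± 0.09), and Larp1, which binds the 5′TOP motif, had 2843 and 2854 and then 2705 and 2502 (0.10 ± 0.08). Among the 13 tested snoRNA host genes of 14, whose introns carry the small RNAs that guide rRNA modification, 0 were called and 0 had an unadjusted p under 0.05 in edgeR, with a median of 0.05.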

How the data were processed

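Total RNA of E15 telencephalic tissue was sequenced by the authors on an Illumina HiSeq instrument. They deposited raw read counts per gene, made per the submitters' processing notes with Bowtie2 2.2.3, TopHat2 2.0.12, HTSeq 0.6.0 and build mm9. How reads with several placements and strand were handled is not given in the sources used here. The positions in the table are those of GRCm38 (24486 of 26433 identifiers have the same position in GENCODE M21). The table also holds the authors' own comparison (mean, fold change, p-value, adjusted p-value and a significance mark), which was not used. The human transgene was not analysed here, and values of some genes are not reported here.

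With R 4.3.3, edgeR 4.0.16 was run on the counts of both groups, with its default expression filter, TMM scaling and no covariate. The SE was taken from the F statistic, whose square root is the ratio of the log2 fold change to its SE. CPM and RPKM were computed from each library's total. DESeq2 1.42.0, the likelihood ratio test, other scalings and filters, pseudogene reads added to their gene and leaving out each library were tried. The pipeline was tested on simulated data with planted changes larger than those of nearly all members. That test therefore does not show whether changes as small as theirs would be called. Pseudogenes were tied to a member by name or description. The genes named are the stalk genes, the members on chromosomes X and 17, paralog pairs, the 5 largest increases and decreases, members with an unadjusted p under 0.05, the 5 highest and lowest levels, and called copies; others were named after their values were seen. The members and lists were chosen with earlier results of these data known. Labels do not say that libraries came from separate embryos, so p-values measure only the spread between these libraries.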

Additional observations from a re-analysis of the deposited data

How the results depend on the processing

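No paired analysis was made, because the labels do not say which libraries share a litter or a batch. The number shared by the column names KI3 and WT3 is not explained there, and no column could be tied to a single labelled sample. The number of ribosomal protein genes called was 0 under every scaling, filter and test tried with all libraries, and 0 to 1 with 1 library left out (Rps18 without WT1, Rpsa without WT3). The number with an unadjusted p under 0.05 was 2 in edgeR, 1 with DESeq2, 1 where each library needed at least 10 counts, which leaves out Rpl24, and 0 to 9 with 1 library left out. The number of all tested genes called was 19 in edgeR. It was 54 by the likelihood ratio test, 6 where each library needed at least 10 counts, 11 after removal of chromosomes X and Y, and 46 to 71 with 1 library left out. The median log2 fold change ran from -0.01 to 0.09 with 1 library left out, and from 0.04 to 0.05 otherwise. The log2 ratio of the summed shares ran from -0.021 to 0.066 with 1 library left out.

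With upper quartile scaling the log2 fold change turned to 0.0031 for Rps9 and 0.0012 for Rpl35. For Rpl22l1 and Rpl39 it turned to -0.0016 and -0.0029 with library size alone, to -0.0040 and -0.0047 with TMM factors from genes that are not members, and to -0.0020 and -0.0029 with a filter of 1 count. For Rpsa and Rpl22l1 it turned to 0.036 and -0.0034 with pseudogene reads added, and to 0.036 and -0.0033 with those of coding genes named -ps added too, an alternative chosen after seeing the data. With 1 library left out, the log2 fold change changed sign in at least 1 case for these genes, with ranges of -0.0066 to 0.079 for Rps15, -0.047 to 0.072 for Rps28, -0.057 to 0.047 for Rpl39, -0.060 to 0.057 for Rps9, -0.13 to 0.099 for Rpl10, -0.077 to 0.066 for Rpl22l1, -0.098 to 0.095 for Rpl35, -0.014 to 0.11 for Rps27l, -0.0060 to 0.12 for Rps10, -0.043 to 0.095 for Rplp0, -0.043 to 0.14 for Rpl13a, -0.85 to 0.083 for Rps18, -0.066 to 0.023 for Rps4x, -0.072 to 0.032 for Rpl3, -0.32 to 0.12 for Rps4l. Rps2-ps6 was no longer called (adjusted p = 0.0504 in edgeR) with a filter of 1 count, where more genes were tested. The cause of the other changes was not tested.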
